A study of Mus musculus with 8 samples.

Results

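The receptors for lysophosphatidic acid (LPA) and the enzymes that make and destroy this lipid were examined in the epididymal fat pad (white adipose tissue next to the testis) of mice that lack LPA4, one of the receptors. The 9 genes were taken as a family by symbol: the receptor genes Lpar4, Lpar1, Lpar2, Lpar3 and Lpar6, the LPA-producing enzyme gene Enpp2, and the phosphatase genes Plpp1, Plpp2 and Plpp3. Every probe set of the array that the platform annotation assigns to one of these symbols, and to no other gene, was used. That gave 17 of the 34945 probe sets with a single gene symbol, for 8 of the 9 genes. Enpp2 had no such probe set under its symbol in the annotation used and was not analysed here.

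There were 4 LPA4-KO arrays and 4 WT arrays. The LPA4-KO mice were males whose only X chromosome carries a deficient Lpar4 allele (Lpar4 -/Y), and the WT mice carried no such allele. All were C57BL/6 males of 12 weeks on standard chow, described as littermates in the design text, and each array is labelled as a biological replicate. The labels do not say which part of Lpar4 was removed, nor that the loss was limited to any cell type. Whole-tissue RNA was measured, so for every gene below fewer cells of a type and less RNA per cell cannot be told apart.

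LPA is a lipid messenger that acts outside the cell. Autotaxin, the secreted enzyme encoded by Enpp2 and abundant in fat, cleaves it from lysophosphatidylcholine, and receptors of the G protein-coupled class sense it. LPA1, LPA2 and LPA3 belong to the family first named for endothelial differentiation genes, together with the sphingosine 1-phosphate receptors, whereas LPA4 and LPA6 resemble purine receptors. The lipid phosphate phosphatases encoded by Plpp1, Plpp2 and Plpp3 have their active site on the outer face of the plasma membrane and end the signal by removing the phosphate.

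The promoters of the receptor genes with measurable variation in this tissue are shown to give the genomic place of each gene. They are the 250 bases before the RefSeq start on the gene's strand in build GRCm38.p6. Of the 9 genes 7 matched the sequence table, and Lpar1 has 3 listed starts, of which the most upstream one is printed. Capitals mark matches on either strand to 6 motifs: the CCAAT box (CCAAT), the TATA box (TATAAA), the GC box (GGGCGG), the TEAD site (GGAATG), the AP-1 site (TGANTCA) and the cAMP response element (TGACGTCA). Overlapping matches run together.
Lpar4, chrX:106920375-106920624, plus strand: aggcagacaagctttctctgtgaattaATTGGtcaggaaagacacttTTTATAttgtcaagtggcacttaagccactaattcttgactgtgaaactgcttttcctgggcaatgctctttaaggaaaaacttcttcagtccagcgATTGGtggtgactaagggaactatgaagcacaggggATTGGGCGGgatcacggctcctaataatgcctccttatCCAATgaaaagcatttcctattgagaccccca
Lpar1, chr4:58553492-58553741, minus strand: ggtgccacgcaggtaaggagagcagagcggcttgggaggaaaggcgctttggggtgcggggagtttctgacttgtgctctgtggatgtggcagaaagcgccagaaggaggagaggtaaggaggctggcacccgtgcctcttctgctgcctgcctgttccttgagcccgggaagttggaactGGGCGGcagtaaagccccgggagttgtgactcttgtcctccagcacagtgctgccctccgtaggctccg
Lpar6, chr14:73237641-73237890, plus strand: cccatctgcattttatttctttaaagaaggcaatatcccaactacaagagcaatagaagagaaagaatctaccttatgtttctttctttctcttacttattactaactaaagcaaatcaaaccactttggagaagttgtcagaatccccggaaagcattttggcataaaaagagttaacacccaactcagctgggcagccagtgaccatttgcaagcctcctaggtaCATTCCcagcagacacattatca

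The Lpar4 window held 4 CCAAT boxes, 1 TATA box on the other strand and 1 GC box that overlaps a CCAAT box. At least 1 CCAAT box was present in 33.8% of 32851 promoter windows of the same length, and 4 or more in 0.84%. The Lpar1 window held 1 GC box, found in 32.7% of windows. In the Lpar6 window the single match was to the TEAD site, which 12.6% of windows held. TATA boxes occurred in 12.4% of windows, AP-1 sites in 6.75% and cAMP response elements in 1.55%. By base composition the Lpar4 (43.6% G and C) and Lpar6 (39.2%) windows were below the median of all windows (52.4%), and that of Lpar1 (62.0%) was above it.

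The values are log2 levels as deposited, 1 per probe set and array. Levels of different probe sets are not comparable with each other, so the order of deposited values served only to choose which genes of a list are named. Of the 17 probe sets, 9 varied over the 8 arrays and 8 were flat, that is, the highest and the lowest array were within 0.1 log2. Over all named probe sets 80.9% were flat, and the flat ones had a median span of 0.00052 log2. The adipocyte genes Adipoq (mean level 13.83) and Lpl (13.76) were among the flat probe sets, so a flat value says nothing on whether the gene changed.

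Of 12 listed adipocyte markers 10 had a probe set, and 7 of these varied, 6 with a positive and 1 with a negative difference (LPA4-KO minus WT). Their mean level ran from 11.19 to 11.30 in LPA4-KO and from 10.89 to 11.27 in WT. The 6 markers of epididymis and testis with a probe set were all flat. Signal above background could not be tested, so these values do not settle which cells the samples held. The arrays correlated at r = 0.952 to 0.992 over the varying probe sets. Among markers of other cell types, negative differences were seen for each of 10 varying progenitor and fibroblast markers, 8 mesothelial markers and 7 varying macrophage markers, where 46.6% of all 4029 varying genes had a positive difference. At the probe set used for each gene 1 of these markers was called, Dpt, where 1.06% of all genes were called, and 2 progenitor and fibroblast genes were called when any probe set counted.

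Lpar4, the targeted gene, gave differences of opposite sign at its 3 probe sets, and only the negative one was called. At 1452424_at the LPA4-KO arrays stood at 5.78, 5.86, 5.83 and 5.74 (replicates 1 to 4), against 6.48, 6.51, 6.53 and 6.54 in WT. Every LPA4-KO array was below every WT array, and within each genotype the 4 arrays lay close together, with an SD of 0.05 in LPA4-KO and 0.03 in WT. The log2 difference was -0.71 ± 0.03 (SE; 95% confidence interval -0.78 to -0.65; limma adjusted p = 0.0033). This was the smallest p among all 34945 named probe sets, while by size of difference the probe set ranked 115.

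At 1434186_at Lpar4 stood at 7.02, 7.18, 6.57 and 7.69 in LPA4-KO arrays, against 6.22, 6.46, 6.66 and 6.39 in WT. LPA4-KO replicates 1, 2 and 4 were above all WT arrays, and LPA4-KO replicate 3 lay within the WT range. The log2 difference of 0.68 had an interval of 0.10 to 1.26 and did not pass the adjustment (limma adjusted p = 0.23, exact permutation p = 0.0571). A similar pattern appeared at 1439665_at, with 7.31, 7.46, 6.71 and 7.94 in LPA4-KO, against 6.75, 6.87, 6.95 and 6.91 in WT. LPA4-KO replicate 3 was here the lowest of all 8 arrays, and replicate 4 the highest. The interval of its difference, -0.12 to 1.08, included 0 (limma adjusted p = 0.39, exact permutation p = 0.143).

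**Figure D1:**
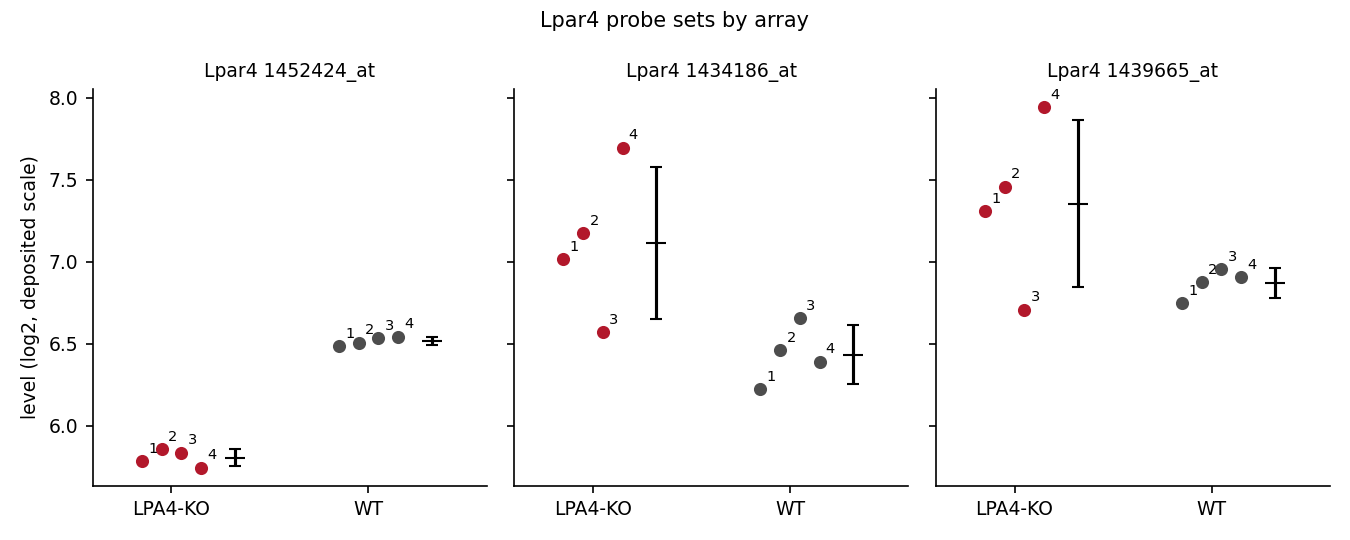
Level of the 3 Lpar4 probe sets (log2, vertical axis) in each LPA4-KO (red) and WT (grey) array, numbered by replicate, with the mean and SD of 4 arrays as a bar beside the points. At 1452424_at all LPA4-KO arrays lie below 5.86 or at it and all WT arrays at 6.48 or above, while at the other probe sets LPA4-KO arrays spread from 6.57 to 7.69 and from 6.71 to 7.94.

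The spread of Lpar4 within LPA4-KO mice was unlike that in WT at 1434186_at and 1439665_at. The SD was 0.46 in LPA4-KO and 0.18 in WT at 1434186_at, and 0.51 and 0.09 at 1439665_at, ratios of 2.59 and 5.71. Among the 6682 varying named probe sets, 1.33% had an LPA4-KO SD at least as large as that of 1434186_at and 0.943% as that of 1439665_at. These SDs rest on 4 arrays each and their difference was not tested.

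The probe sets 1439665_at and 1434186_at followed each other from array to array. Their Pearson r over the 8 arrays was 0.966, and 0.969 once each genotype's mean was taken out. Against 1452424_at, r was -0.641 for 1439665_at and -0.77 for 1434186_at, and without the genotype means -0.477 and -0.436. The correlations describe 8 arrays that share their normalization.

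The probe sets with differences of opposite sign were set against each other within arrays. The level at 1434186_at minus that at 1452424_at was 1.23, 1.32, 0.73 and 1.95 in LPA4-KO arrays, and -0.26, -0.05, 0.12 and -0.15 in WT arrays. The groups did not overlap, and the difference between genotypes was 1.39 log2 (exact two-sided permutation p = 0.0286 over 70 arrangements, the smallest possible with 4 against 4). For 1439665_at minus 1452424_at it was 1.20 log2 with the same p. Since 1452424_at alone separated the genotypes (exact permutation p = 0.0286), these contrasts cannot show a change at 1434186_at or 1439665_at. For 1439665_at minus 1434186_at, which share their sign, the values were 0.24 ± 0.07 in LPA4-KO and 0.44 ± 0.11 in WT (SD, n = 4 each), a difference of -0.20 log2 with the same exact p. Where each probe set lies relative to the deleted part of Lpar4 is not given in the sources used here, and a probe set outside it would not check the loss of that part. The sign contrast was known from earlier results of these arrays, so its p is a description and not independent evidence.

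**Figure D2:**
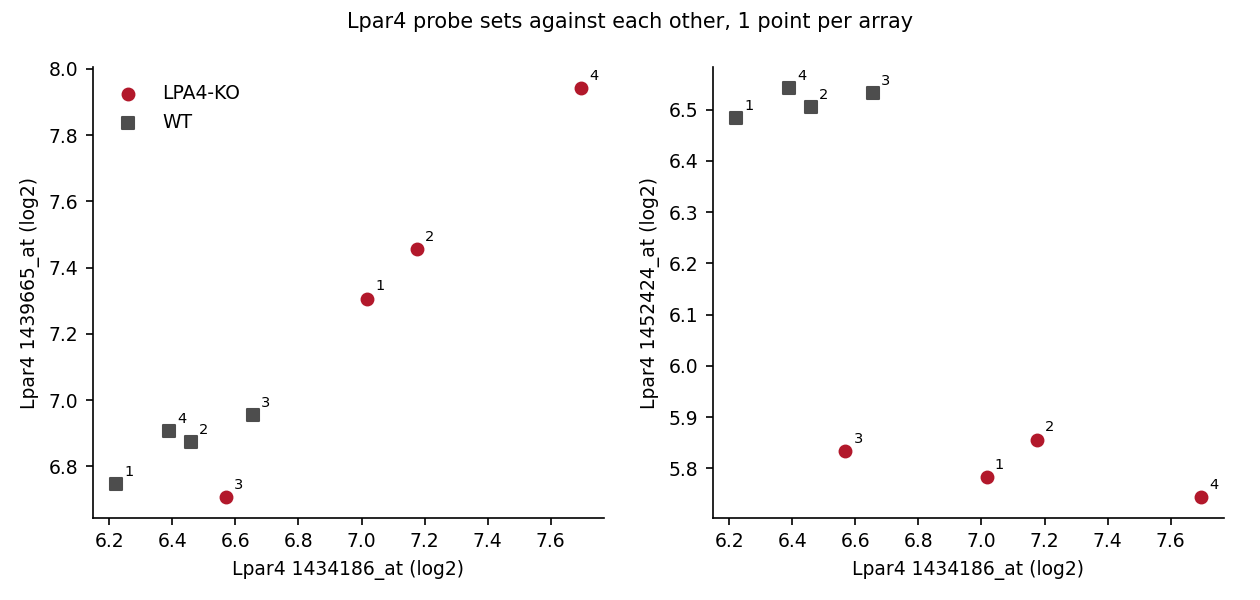
Lpar4 level at 1439665_at (left, vertical axis) and at 1452424_at (right, vertical axis) against that at 1434186_at (horizontal axes), all log2, 1 point per array, LPA4-KO in red circles and WT in grey squares with replicate numbers. On the left the probe sets rise together over the 8 arrays (r = 0.966), and on the right the genotypes form separate groups.

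The genes whose arrays were most like Lpar4 differed between its probe sets. For 1452424_at they were Fbln5, an elastic fibre gene (r = 0.990 over 8 arrays, 0.797 without the genotype means), Dync2li1, a gene of the dynein motor of cilia (0.986 and 0.383), and Endou, an endoribonuclease gene (0.983 and 0.344). All of these were called lower in LPA4-KO mice (limma adjusted p from 0.0178 to 0.0220), where 3.76% of the varying named probe sets were called. They were picked for likeness to a probe set that separates the genotypes, so these calls follow from the choice. For 1434186_at they were Fasn, the fatty acid synthase (0.962 and 0.939), Ndufa1, a gene of respiratory complex I (0.934 and 0.845), and Me1, the cytosolic malic enzyme (0.929 and 0.841). For 1439665_at they were Mpc1, a subunit gene of the mitochondrial pyruvate carrier (0.904 and 0.869), Tlcd3b (0.903 and 0.841) and Robo4, an endothelial receptor gene (0.900 and 0.836). The most like genes were picked as the extreme values out of 6682 varying probe sets.

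Fasn shared with 1434186_at the order of the LPA4-KO arrays, a likeness that follows from how it was picked. Its level was 10.32, 10.40, 9.91 and 10.98 in LPA4-KO, against 8.90, 9.56, 9.51 and 9.32 in WT. LPA4-KO replicate 4 was the highest and replicate 3 the lowest of its group, as at 1434186_at of Lpar4. Unlike Lpar4 at that probe set, the Fasn groups did not overlap, and with a log2 difference of 1.08 Fasn was not called (limma adjusted p = 0.116).

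Of the other receptors, Lpar1 and Lpar6 varied. Lpar1 encodes the receptor through which LPA acts on preadipocytes and fibroblasts. At 1417143_at it stood at 7.17, 7.24, 7.27 and 7.13 in LPA4-KO arrays, against 7.65, 7.32, 7.48 and 7.45 in WT arrays. All LPA4-KO arrays were below all WT arrays, by a mean log2 difference of -0.27 ± 0.07 (SE; 95% confidence interval -0.45 to -0.10), a 1.21-fold lower level that was not called over all named probe sets (limma adjusted p = 0.139, exact permutation p = 0.0286, the smallest possible). In the fit of the 6682 varying probe sets alone, a limit set with the values known, its adjusted p was 0.0515. The other probe sets of Lpar1, 1448606_at (mean 7.22 in both genotypes) and 1426110_a_at (6.36 in both), were flat.

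Adipocyte progenitors and fibroblasts are cells known for LPA1. The mean level over 10 varying markers of these cells, of which 1 was called, ran from 9.19 to 9.55 in LPA4-KO and from 9.58 to 9.87 in WT, without overlap. LPA4-KO replicate 4 was the lowest array both for Lpar1 (7.13) and for the marker mean (9.19). WT replicate 1, the highest array for Lpar1 (7.65), had the lowest marker mean of the WT arrays (9.58). Dcn, the decorin gene, differed by -0.25 ± 0.09 (limma adjusted p = 0.246) and Col3a1, a fibrillar collagen gene, by -0.23 ± 0.22 (adjusted p = 0.659). Dpt, which encodes dermatopontin and is named because it was called, had a log2 difference of -0.43 ± 0.04 (adjusted p = 0.0258). The part of these cells in the Lpar1 difference was not tested. The genes most like Lpar1 at 1417143_at were Rps7, a ribosomal protein gene (r = 0.989 over 8 arrays, 0.974 without the genotype means), Leprot, which shares its first exons with the leptin receptor gene (0.976 and 0.949), and Fez1 (0.974 and 0.939).

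Lpar6, the receptor gene closest in sequence to Lpar4 within the family, has 1 probe set, 1428615_at. It stood at 9.63, 9.65, 9.46 and 9.49 in LPA4-KO, against 9.48, 10.08, 9.84 and 9.79 in WT. WT replicate 1 lay inside the LPA4-KO range, and the other WT arrays were above all LPA4-KO arrays. The log2 difference was -0.24 ± 0.13 (SE), with an interval from -0.54 to 0.07 that includes 0 (limma adjusted p = 0.404, exact permutation p = 0.143). Left without WT replicate 1 the difference was -0.34, and without WT replicate 2 it was -0.15, neither of them called. A higher Lpar6 level in LPA4-KO mice by more than 0.07 log2 is therefore outside the interval at this probe set.

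The gene most like Lpar6 was Clec7a, which encodes the myeloid receptor dectin-1 (r = 0.977 over 8 arrays, 0.971 without the genotype means), followed by Snx18 (0.960 and 0.951) and Lratd2 (0.944 and 0.914). The mean over 7 varying macrophage markers ran from 10.08 to 10.29 in LPA4-KO and from 10.22 to 10.53 in WT, so the groups overlapped. Lyz2, the lysozyme gene, had a log2 difference of -0.42 ± 0.09 (limma adjusted p = 0.0975), and Csf1r, the receptor for a macrophage growth factor, with -0.21 ± 0.11 (adjusted p = 0.383). Their part in the Lpar6 values was not tested.

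Lpar2 and Lpar3, receptor genes of the endothelial differentiation family, were flat at all their probe sets. The means in LPA4-KO and WT were both 5.97 at 1420576_at and both 5.96 at 1442291_at for Lpar2, and both 5.89 at 1418723_at for Lpar3. Nothing about a change in these receptors can be read from such values.

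**Figure D3:**
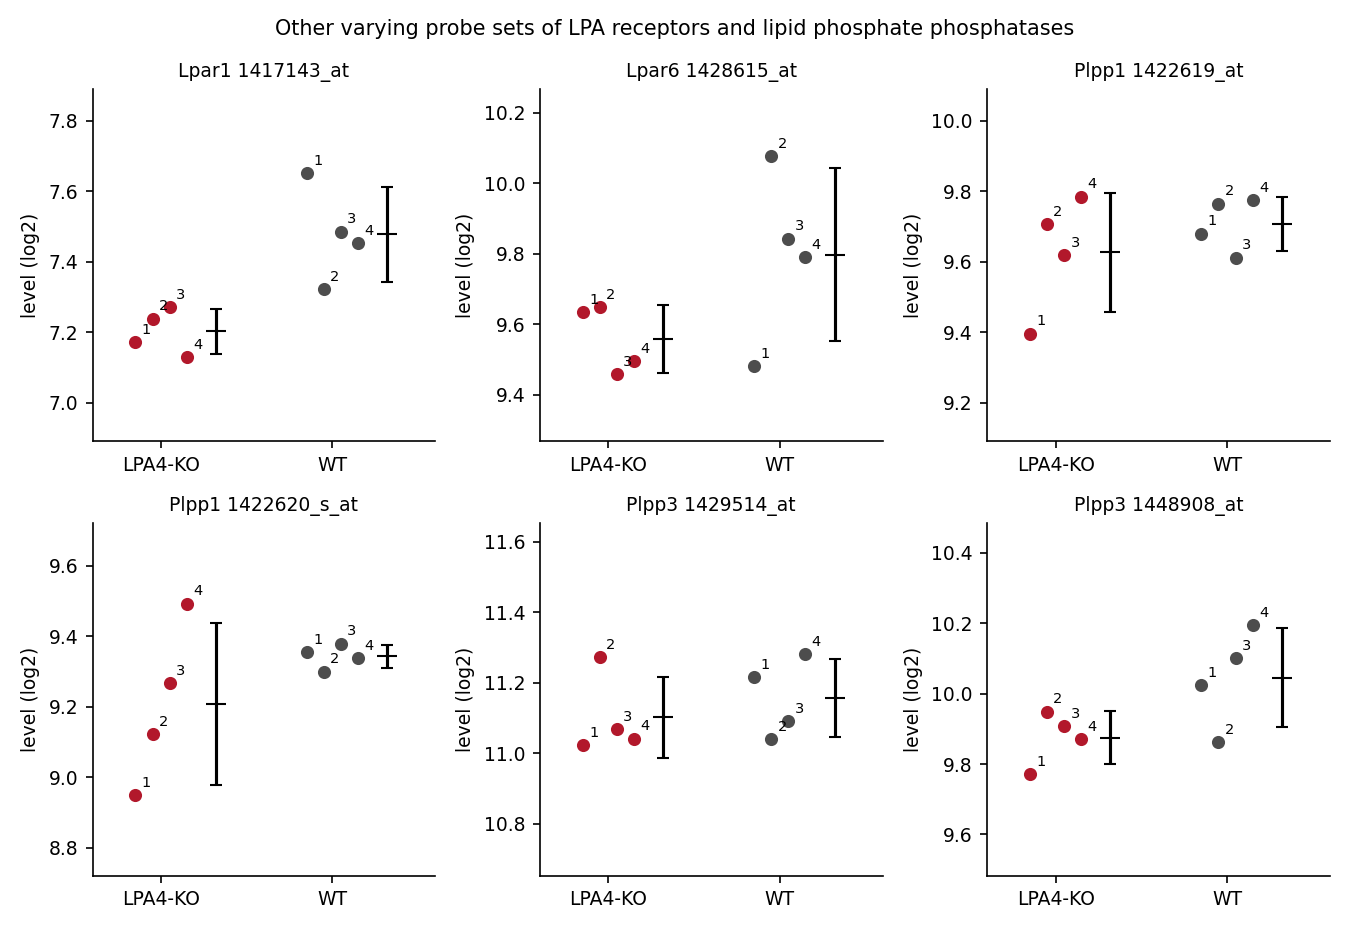
Level (log2, vertical axes, each spanning 1 log2 unit) of the 6 varying probe sets of Lpar1, Lpar6, Plpp1 and Plpp3 in LPA4-KO (red) and WT (grey) arrays, numbered by replicate, with mean and SD of 4 arrays beside the points. Only for Lpar1 among these are all LPA4-KO arrays (7.13 to 7.27) below all WT arrays (7.32 to 7.65).

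No probe set of the phosphatase genes was called. Plpp3, which encodes the phosphatase best known for clearing LPA around vessels, stood at 9.77, 9.95, 9.91 and 9.87 in LPA4-KO, against 10.02, 9.86, 10.10 and 10.19 in WT at 1448908_at. WT replicate 2 lay within the LPA4-KO range, and the log2 difference was -0.17 ± 0.08 (SE; limma adjusted p = 0.329, exact permutation p = 0.114). At 1429514_at the Plpp3 arrays ran from 11.02 to 11.27 in LPA4-KO and from 11.04 to 11.28 in WT, ranges that nearly coincide, with a difference of -0.06 ± 0.08 (adjusted p = 0.783) that ran from -0.11 without LPA4-KO replicate 2 to -0.01 without WT replicate 4. The 95% intervals, -0.36 to 0.01 and -0.24 to 0.13, both included 0. The pair of Plpp3 probe sets correlated at r = 0.697 over 8 arrays, and at 0.715 without the genotype means.

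Plpp1, the gene of a broadly expressed phosphatase of the same family, varied at 2 of 3 probe sets. At 1422619_at it stood at 9.40, 9.71, 9.62 and 9.78 in LPA4-KO, against 9.68, 9.76, 9.61 and 9.77 in WT. LPA4-KO replicate 1 was the lowest array and the others overlapped with WT (log2 difference -0.08 ± 0.09, limma adjusted p = 0.714), and the difference was -0.004 without LPA4-KO replicate 1 and -0.13 without LPA4-KO replicate 4. At 1422620_s_at the levels were 8.95, 9.12, 9.27 and 9.49 in LPA4-KO, against 9.36, 9.30, 9.38 and 9.34 in WT. LPA4-KO arrays lay on both sides of the narrow WT range, with an SD of 0.23 in LPA4-KO and 0.03 in WT (log2 difference -0.14 ± 0.11, adjusted p = 0.608), and the difference was -0.05 without LPA4-KO replicate 1 and -0.23 without LPA4-KO replicate 4. The suffix of this probe set marks probes that can bind transcripts of more than 1 gene. Both Plpp1 probe sets put LPA4-KO replicate 1 lowest and replicate 4 highest, and they correlated at r = 0.742 over 8 arrays.

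The gene most like Plpp1 at 1422619_at was Pecam1, a marker of endothelial cells (r = 0.928 over 8 arrays, 0.948 without the genotype means), followed by Rtf2 (0.925 and 0.916) and Tcn2, a vitamin carrier gene (0.900 and 0.893). LPA4-KO replicate 1 was the lowest array of Pecam1, at 7.49, against 8.15 to 8.23 in the other LPA4-KO arrays and 8.15 to 8.47 in WT. The mean over 4 varying endothelial markers ran from 8.18 to 8.51 in LPA4-KO and from 8.45 to 8.74 in WT, with 1 positive and 3 negative differences. Emcn, Cldn5 and Vwf are named after their values were seen. Emcn, the endomucin gene, ran the other way from Pecam1 (-0.32 ± 0.19), with a difference of 0.28 ± 0.12. It stood at 8.90 in LPA4-KO replicates 1 and 2 and in WT replicate 1. Cldn5 (-0.61 ± 0.32) and Vwf (-0.25 ± 0.11) had the sign of Pecam1. LPA4-KO replicate 1 was the lowest array of Cldn5, at 8.62, but not of Vwf. The part of endothelial RNA in the Plpp1 values was not tested. For Plpp3 at 1429514_at the most like genes were Atxn7l1 (0.957 and 0.974), Clic6 (0.956 and 0.954) and the chemokine gene Cxcl1 (0.930 and 0.926). The third Plpp1 probe set, 1425449_at, was flat with a mean of 5.94 in both genotypes. Plpp2 was flat at 1451210_at (7.77 in both) and 1420910_at (6.23 in both).

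Counted over the family, 1 of the 17 probe sets was called, 1452424_at of Lpar4, lower in LPA4-KO. Over all named probe sets 0.933% were called (326 of 34945), 0.321% lower and 0.612% higher, and among the varying ones 3.76% were called. That overall count came to between 10 and 125 when any 1 of the 8 arrays was left out, while the family count stayed at 1 each time. The groups did not overlap at 2 of the 9 varying probe sets, that of Lpar1 and 1452424_at of Lpar4, where 28.2% of all varying named probe sets and 12.5% of all named probe sets showed no overlap. The 6 varying probe sets outside Lpar4 all had negative differences, with a median of -0.15 log2, against -0.05 over all varying named probe sets, of which 56.8% were negative. Passing the limit for variation depends in part on the genotype difference itself, so these counts are a description.

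**Figure D4:**
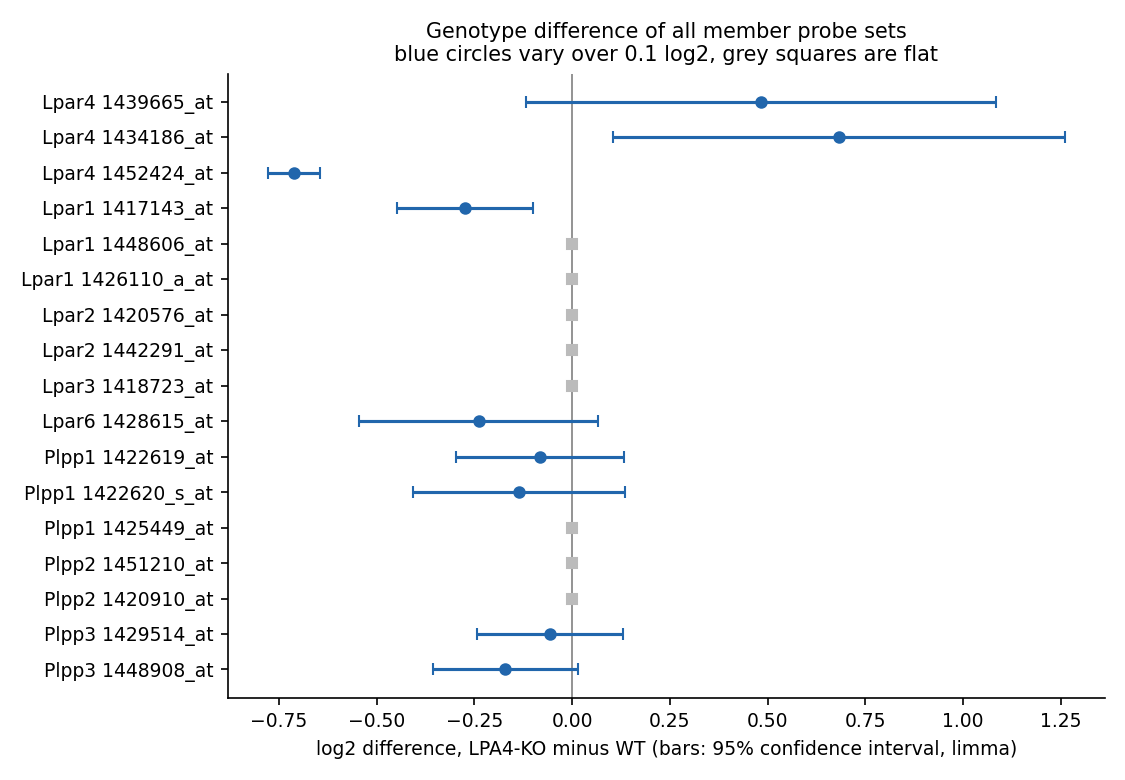
Log2 difference, LPA4-KO minus WT (horizontal axis), of all 17 probe sets with the 95% confidence interval of the limma fit as bars. Blue circles are the 9 varying and grey squares the 8 flat probe sets. Among the varying probe sets the interval lies wholly below 0 for Lpar4 1452424_at and Lpar1 1417143_at, and wholly above 0 for Lpar4 1434186_at.

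Genes around LPA signalling were examined in 8 lists, using for each gene the probe set of highest mean level. Of 71 genes 68 were measured and 28 varied. In the fit of all named probe sets limma called 0 of the 68. Over all genes at their highest probe set 1.06% were called (0.346% lower, 0.715% higher). Of the 68, 15 had an unadjusted p under 0.05, 10 of them varying. Such values were common, as an unadjusted limma p of 0.0495 ranked only 5856 among the 34945 named probe sets. The share among varying genes was not counted. In the fit of the varying probe sets alone 6 were called, 2 higher and 4 lower, where 18.8% of varying probe sets were called (1259 of 6682). The median difference of the 28 was 0.05 log2, against -0.03 over all 4029 varying genes.

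Among other genes that supply LPA and phosphatidic acid, 5 of 12 varied. Gpat3, which encodes an acyltransferase that makes LPA inside the cell as a step of triglyceride synthesis, averaged 10.46 ± 0.24 in LPA4-KO and 9.82 ± 0.19 in WT (SD, n = 4 each; log2 difference 0.64, limma adjusted p = 0.114, and 0.0173 in the varying probe sets alone). Gpam, the mitochondrial enzyme of that step, averaged 12.37 ± 0.06 in LPA4-KO and 12.14 ± 0.18 in WT (limma adjusted p = 0.290, and 0.0884 alone). Pla1a, a secreted phospholipase that acts on phosphatidylserine, averaged 8.94 ± 0.17 in LPA4-KO and 9.43 ± 0.08 in WT (limma adjusted p = 0.0732, and 0.0130 alone). Gpat3 was thus called higher and Pla1a lower in the second fit only, each with no overlap between the groups. Of all varying named probe sets 18.8% were called in that fit and 28.2% showed no overlap.

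Of the relatives of autotaxin 4 of 5 were measured and 1 varied. Enpp3, an ectoenzyme that cleaves nucleotides, averaged 7.04 ± 0.13 in LPA4-KO and 7.42 ± 0.14 in WT (SD, n = 4 each; log2 difference -0.38, limma adjusted p = 0.120, and 0.0313 in the varying probe sets alone). Enpp4, Enpp5 and Enpp6 were flat. Of 12 other genes that remove or convert LPA 1 varied, Agpat2, which turns LPA into phosphatidic acid in adipocytes, at 10.80 ± 0.19 in LPA4-KO and 10.38 ± 0.30 in WT (limma adjusted p = 0.291, and 0.0768 alone). Agpat1, Agpat3 and Agpat4 were flat, as were all 5 genes of membrane proteins related to the phosphatases, Plppr1, Plppr2 and Plppr3 among them. The sphingosine 1-phosphate receptor genes S1pr1 (log2 difference -0.14 ± 0.12) and S1pr3 (-0.07 ± 0.16) varied, and S1pr5 was flat. Lpar5, the remaining LPA receptor gene, was not analysed here.

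Among 15 targets of the transcription regulators SRF and YAP/TAZ, which respond to signals from LPA receptors, 11 varied, 5 with positive and 6 with negative differences. Acta2, the smooth muscle actin gene, averaged 10.42 ± 0.06 in LPA4-KO and 11.73 ± 0.43 in WT (SD, n = 4 each; log2 difference -1.31, limma adjusted p = 0.0573, and 0.0066 in the varying probe sets alone). The suffix of its probe set, as for Plpp1 above, marks probes that can bind transcripts of several genes. Axl, a receptor kinase gene, averaged 8.47 ± 0.13 in LPA4-KO and 8.87 ± 0.13 in WT (limma adjusted p = 0.101, and 0.0222 alone). Vcl, the vinculin gene, pointed the other way, with 10.17 ± 0.09 in LPA4-KO and 9.95 ± 0.09 in WT (limma adjusted p = 0.174, and 0.0666 alone). Acta2 is also a smooth muscle marker, and Rgs5, a pericyte gene of that list, differed by -0.02 ± 0.10 (limma adjusted p = 0.944). Tagln, also among the 15 targets, and Myh11 are the other varying markers of the list and contractile genes. They are named after their values were seen, with differences of 0.08 ± 0.12 and 0.20 ± 0.10. Without Acta2 the mean over the 3 varying markers ran from 8.65 to 8.84 in LPA4-KO and from 8.41 to 8.79 in WT.

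**Figure D5:**
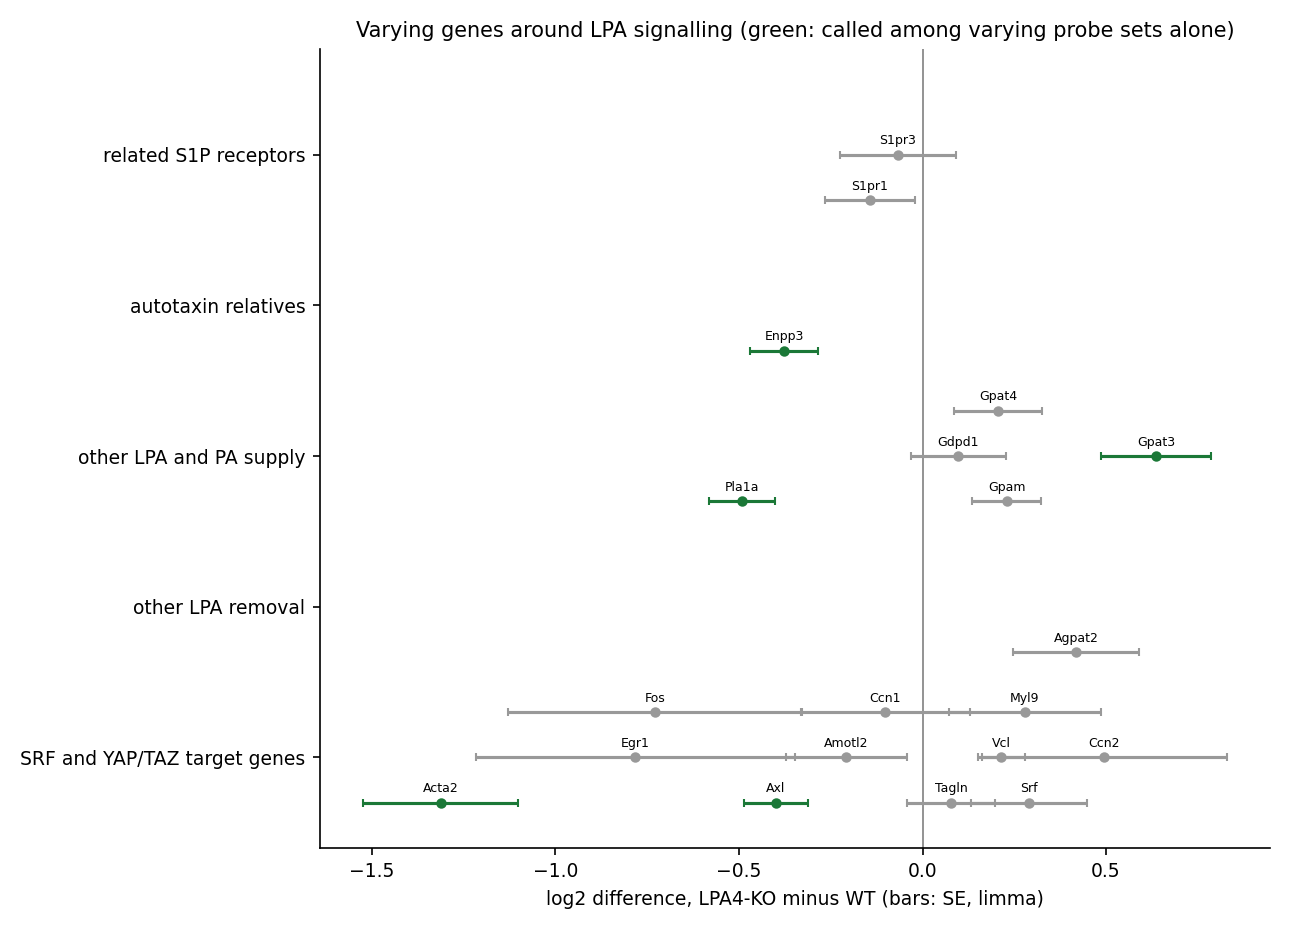
Log2 difference, LPA4-KO minus WT (horizontal axis, bars SE), of the 20 varying genes in the 5 described lists around LPA signalling that hold any, 1 point per gene. Green points are the 5 genes among them called in the fit of varying probe sets alone, Gpat3 to the right of 0 and Pla1a, Enpp3, Acta2 and Axl to the left.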

How the data were processed

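RNA of epididymal fat was labelled from 100 ng per mouse with a 3′ in vitro transcription kit and hybridised to Affymetrix arrays, per the labels' protocols. The table deposited by the authors holds a single value for each probe set on each array, taken here as log2, a reading that rests on their range from 5.27 to 14.07 and array medians of 6.50 to 6.51. R 2.14.0 is named in the submitters' processing notes; on background correction, normalization and summarisation nothing is given in the sources used here.

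Of 45101 probe sets, 34945 had 1 gene symbol in the platform annotation, 932 several, 9160 none, and 64 were control probe sets. RefSeq (GRCm38.p6) held the Entrez number of 34741 named ones and changed 0 symbols. Groups follow the genotype in the labels. All named probe sets were fitted with limma 3.58.1 in R 4.3.3 (lmFit, eBayes with a trend), adjusted by Benjamini-Hochberg over all of them and called under 0.05. Single probe sets were also tested with an exact two-sided permutation test (smallest p 0.0286). Signal above background could not be tested. Precision is limited by having 4 arrays per genotype. The members, the lists and the limit of 0.1 log2 were chosen with earlier results of these data known. Named outside the members were genes called, the 2 with the smallest p and the 2 highest of each pathway list, up to 2 markers of a cell type by the highest deposited value (and Dpt, which was called), and the 3 genes most like a member by Pearson r; exceptions are marked.

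On simulated data with the spread of these arrays, the fit of 34945 probe sets recovered 36% of 100 varying probe sets changed 1.5-fold and 76% of 100 changed 2-fold, with 3 false calls among 115. The fit of the 6682 varying probe sets alone recovered 66% and 93%, with 12 false calls among 171. Those probe sets were taken from the real arrays and not chosen again in the simulated data. Probe sets were also simulated independently of each other. The false calls therefore leave out the effect of that choice and of correlation between probe sets. Pathway genes were called in that second fit only. The counts over the pathway lists cover 8 lists, of which 1 is not reported here gene by gene.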

Additional observations from a re-analysis of the deposited data

How the results depend on the processing

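The 9 varying probe sets kept the sign of their difference in all 175 values under 20 alternatives (other eBayes settings, array weights, scaling, filters, a block, each array left out), and 168 stayed on the same side of the threshold. Lpar4 1452424_at lost its call with the replicate number as a block (-0.71, adjusted p = 0.0847), where 3 named probe sets in all and 0 of the family were called; the samples share only a number, with correlations of deviations between same-numbered arrays from -0.20 to 0.27. Lpar4 1434186_at was called after quantile normalization (0.69, adjusted p = 0.0390) and median centring (0.69, adjusted p = 0.0288). These scalings called 21927 and 28378 of the 34945 named probe sets, flat ones included, so a call there says little. It was also called within the 6682 varying probe sets after these scalings (0.77 and 0.71, chosen after seeing the data), where 1269 and 1288 were called. Without any 1 array the difference ran from -0.73 to -0.69 at 1452424_at, from 0.49 to 0.86 at 1434186_at and from 0.29 to 0.70 at 1439665_at, with no change of call. Lpar1 1417143_at was called after either scaling of all probe sets (-0.25 and -0.27), where most named probe sets were called.

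The count of called probe sets, 326, was 535 with array weights, 595 above the median level, 1126 at an adjusted p under 0.1, 1259 in the varying probe sets alone (1269 and 1288 with scaling), and 10 to 125 without any 1 array. Quantile normalization and median centring of the whole table gave 21927 and 28378, with median differences over all named probe sets of 0.0039 and 0.0072 log2, and the cause was not tested; they called 9 and 11 of the family, 6 and 8 of them flat. The family count was 2 under each scaling of the varying probe sets. It was 0 above the median level and with 1 probe set per gene, where 1452424_at is left out. Of the pathway genes 6 were called in the varying probe sets alone, against 0.

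For the contrast between Lpar4 probe sets the block (an exact paired test, smallest p 0.125) gave 1.39, 1.20 and -0.20 for 1434186_at minus 1452424_at, 1439665_at minus 1452424_at and 1439665_at minus 1434186_at, each with p = 0.125. Without any 1 array these ran from 1.18 to 1.59, from 0.98 to 1.42 and from -0.25 to -0.16, with p of 0.0286 or 0.0571. Without WT replicate 1, p was 0.0571 for the first. Without any 1 WT array it was 0.0571 for the second. Without any 1 LPA4-KO array it was 0.0571 for the third, which quantile normalization also gave (-0.19).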
